A study of Mus musculus with 11 samples.

Results

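Interferon-stimulated genes are the genes that cells switch on when an interferon binds its receptor, and 41 of them, given as a list of gene symbols, were followed here in the RNA of isolated mouse hepatocytes. The files held a row for all 41 members among 54232 gene identifiers, and all 41 were among the 13303 genes that passed the filter on low counts. The study asked how loss of XBP1, a transcription factor of the unfolded protein response, and a high fat sugar (HFS) diet change hepatocyte gene expression in a model of steatohepatitis. Of the 11 libraries, 3 came from *Xbp1* fl/fl control mice fed chow, and 2 from liver-specific *Xbp1* knockout (*Xbp1* LKO) mice fed chow, while the HFS diet gave 3 of each genotype. A further chow-fed *Xbp1* LKO library of the study was not analysed here, so every value of that group rests on 2 libraries. Both genotypes were adult C57BL/6 males that carry the floxed *Xbp1* gene, the knockout adds Cre driven by the albumin promoter, and each diet was given for up to 6 weeks. The HFS diet was a Western diet with fructose and glucose in the drinking water. A chow library held hepatocytes of 1 mouse and an HFS library a pool of 2 mice, so diet and pooling cannot be told apart. The total count per library was 19191032 to 23888401.

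Levels are given in CPM, the reads of a gene scaled to a fixed library size after TMM normalization. *Xbp1* itself had 194, 200.3 and 221 CPM in *Xbp1* fl/fl and 95.7 and 128 CPM in *Xbp1* LKO libraries on chow, and on the HFS diet 301, 295 and 242 CPM and 117, 97.3 and 135 CPM. The genotypes did not overlap in *Xbp1*, and a count over the whole gene includes exons outside the deleted part. Hepatocyte markers were abundant in every library and lower in *Xbp1* LKO hepatocytes. Of 17 such markers, 16 had a negative log2 fold change in the knockout on each diet, and *Alb* (chow, -2.14), *Serpina1a* (chow, -0.95), *Apoa1* (HFS, -1.45) and *F2* (chow, -0.86, and HFS, -0.93) passed the threshold.

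Type I interferons bind a receptor made of IFNAR1 and IFNAR2, whose kinases activate STAT2. With IRF9 it is part of the factor ISGF3, which binds a DNA sequence called the interferon-stimulated response element (ISRE) in front of its target genes. Interferon gamma acts through another receptor and on another DNA sequence, the gamma-activated site (GAS). In the liver, as elsewhere, the products of these genes sense viral nucleic acid, block viral replication, attack vacuoles that hold pathogens, and feed back on interferon signaling. The 41 members were grouped here as transcription factors (4 genes), RNA and DNA sensors (6), the ISG15 system (4), IFIT and OAS-like proteins (5), the PARP9 complex and PARP14 (3), interferon-induced GTPases (8) and other effectors (11).

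The promoters of the members were searched for these sequences, through which the textbook response to interferon runs. RefSeq promoter windows on GRCm38.p6, from 250 bases before to 50 bases after the start of transcription, were found for 32 of the 41 members. The ISRE core was searched as GAAANNGAAA on both strands, and 16 of the 32 members (50%) held it, compared to 3.99% of 27025 genes with a window. The GAS core, searched as TTCNNNGAA, reads the same on both strands and was in 8 of the 32 members (25%), compared to 9.55% of all genes. Both cores were in *Bst2*, *Gbp7*, *Igtp*, *Irgm2* and *Eif2ak2*. A match is a description of the letters and not evidence of a bound site.

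Of the members that passed the threshold in a comparison below, *Bst2* and *Trim30a* hold ISRE cores, and their windows are shown 5′ to 3′ on the strand of the gene, with the cores in capitals. The *Bst2* window lies on the minus strand. It holds overlapping cores that start at positions -130 and -124 from the start of transcription, and the earlier of them overlaps a GAS core that starts at position -136. *Trim30a*, also on the minus strand, has a window for each of its starts, and in each the core is on the opposite strand, at position -36 in the window of the upstream start and at position 3 in that of the downstream start.
Bst2 chr8:71537423-71537722: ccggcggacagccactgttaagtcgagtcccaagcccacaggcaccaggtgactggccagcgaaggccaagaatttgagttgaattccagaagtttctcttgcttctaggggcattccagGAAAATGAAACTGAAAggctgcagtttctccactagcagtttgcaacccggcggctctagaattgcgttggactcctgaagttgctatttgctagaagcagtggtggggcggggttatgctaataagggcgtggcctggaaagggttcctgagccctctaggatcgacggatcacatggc
Trim30a upstream start chr7:104465144-104465443: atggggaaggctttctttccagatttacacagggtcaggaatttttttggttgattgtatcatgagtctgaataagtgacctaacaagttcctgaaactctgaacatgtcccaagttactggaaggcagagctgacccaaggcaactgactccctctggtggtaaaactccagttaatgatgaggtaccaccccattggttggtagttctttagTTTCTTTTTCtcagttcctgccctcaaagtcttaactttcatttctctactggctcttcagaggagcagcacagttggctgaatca
Trim30a downstream start chr7:104446076-104446375: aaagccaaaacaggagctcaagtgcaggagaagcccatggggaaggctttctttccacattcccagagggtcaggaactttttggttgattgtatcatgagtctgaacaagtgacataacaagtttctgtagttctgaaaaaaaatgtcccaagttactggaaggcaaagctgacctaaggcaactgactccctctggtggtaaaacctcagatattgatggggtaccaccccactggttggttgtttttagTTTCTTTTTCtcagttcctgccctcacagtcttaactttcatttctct
The *Cnp* window on the plus strand of chromosome 11, from 100574689 to 100574988, holds neither core. For *Iigp1* and *Usp18*, the other members that passed the threshold, no window was found, so they were not searched. Among the 16 members with an ISRE core and the 16 without, the median log2 fold change between genotypes on chow (knockout over control) was -0.42 and -0.41, and that of HFS compared to chow in *Xbp1* LKO hepatocytes was 0.49 and 0.76.

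In hepatocytes of chow-fed mice, interferon-stimulated genes were mostly lower in *Xbp1* LKO than in *Xbp1* fl/fl libraries. The log2 fold change was negative for 35 of the 41 members, with a median of -0.39 compared to 0.0024 over all genes tested. *Trim30a*, *Iigp1*, *Bst2* and *Cnp* passed the threshold. Calls here and below rest on the quasi-likelihood test of edgeR, with p-values adjusted by the Benjamini-Hochberg method over all 13303 genes and a threshold of 0.05. These 4 were lower, and of all genes tested 3.02% were called lower. No member was called higher, where 1.73% of all genes were. At an unadjusted p under 0.05, 15 members were lower and 2 were higher, where 10.5% of all genes were lower and 8.76% higher. DESeq2 called 5 members lower and 0 higher, where it called 5.12% of all genes lower and 3.05% higher. In 20 members both *Xbp1* LKO libraries were below all 3 *Xbp1* fl/fl libraries, where 15.9% of all genes were, and in 2, *Usp18* and *Gbp6*, both were above, where 15.4% of all genes were.

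*Trim30a* encodes a TRIM protein that restrains signaling from Toll-like receptors, and lies on chromosome 7 from 104409025 to 104465193. Its level on chow was 1.88, 1.56 and 1.34 CPM in *Xbp1* fl/fl libraries and 0.683 and 0.393 CPM in *Xbp1* LKO libraries. The *Xbp1* LKO libraries held 16 and 9 reads, so this is a low count, and the groups did not overlap. It changed by -1.55 on the log2 scale (SE 0.32, adjusted p = 0.020). *Iigp1*, an immunity-related GTPase that acts on parasite vacuoles, lies on chromosome 18 from 60376027 to 60392634. It was measured at 299, 340.3 and 389 CPM in *Xbp1* fl/fl and 226 and 153 CPM in *Xbp1* LKO libraries. Here too the groups were apart, with a log2 fold change of -0.85 (SE 0.19, adjusted p = 0.025).

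*Bst2* encodes tetherin, which holds budding virus particles at the cell surface, and lies on chromosome 8 from 71534255 to 71537456. Its chow values were 153, 139 and 138 CPM in *Xbp1* fl/fl and 101 and 99.6 CPM in *Xbp1* LKO libraries. Those of each genotype lay close together, and the log2 fold change was -0.52 (SE 0.13, adjusted p = 0.040). *Cnp*, a nucleotide phosphodiesterase best known from myelin, lies on chromosome 11 from 100574904 to 100591729 and overlaps *Dnajc7* on the other strand. Whether the counting used strand is not given in the sources used here, so reads of this pair may not be told apart. It had 15.1, 14.8 and 11.2 CPM in *Xbp1* fl/fl and 8.83 and 5.42 CPM in *Xbp1* LKO libraries on chow. Its log2 fold change was -0.94 (SE 0.24, adjusted p = 0.047), and the groups were apart.

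**Figure D1:**
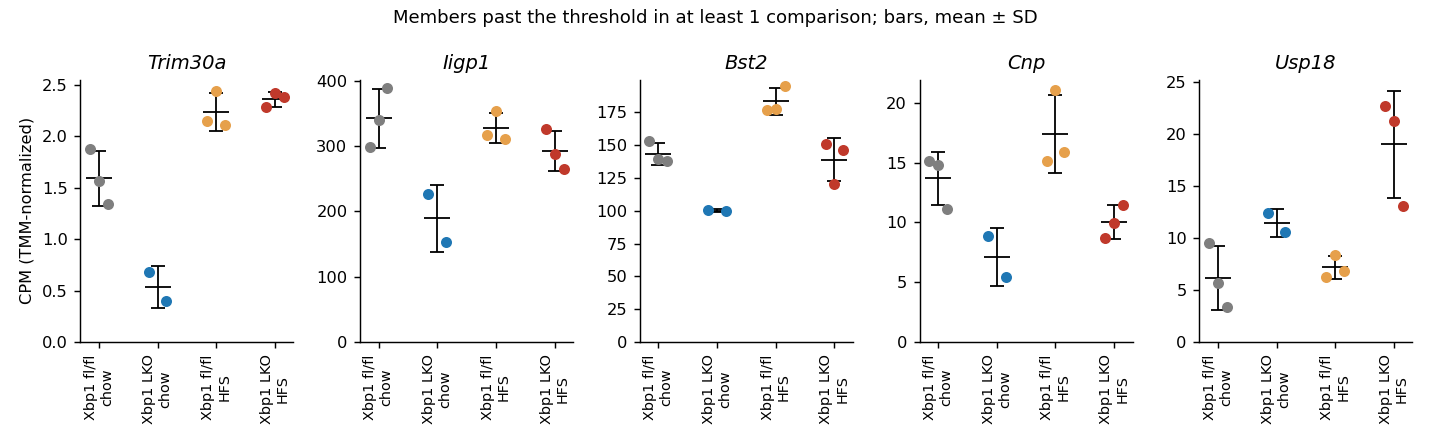
TMM-normalized CPM (vertical axes, from 0) of the 5 members past the threshold in at least 1 comparison, by genotype and diet. Points are libraries and bars the mean with its SD (n = 2 for chow-fed *Xbp1* LKO, n = 3 otherwise); *Trim30a*, *Iigp1*, *Bst2* and *Cnp* are lowest in the chow-fed *Xbp1* LKO group by mean, and *Usp18* is highest in the HFS-fed *Xbp1* LKO group.

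By role, the IFIT and OAS-like group had the most negative median on chow, at -1.03. It holds the IFIT proteins (*Ifit1*, *Ifit2*, *Ifit3*), some of which bind viral RNA and inhibit translation, and OAS-like proteins (*Oasl1*, *Oasl2*). All 5 log2 fold changes were negative, from -0.67 for *Oasl2* to -1.49 for *Ifit2* (adjusted p = 0.13). None of the 5 passed the threshold, and *Ifit2* had 8 and 5 reads in the *Xbp1* LKO libraries. *Ifit1* had 5.19, 3.81 and 3.24 CPM in *Xbp1* fl/fl and 2.52 and 1.88 CPM in *Xbp1* LKO libraries on chow, without overlap, and a log2 fold change of -0.89 (adjusted p = 0.17). All 4 transcription factors were negative, with a median of -0.54. *Irf7*, the amplifier of type I interferon production, was at -0.82 (adjusted p = 0.18), with 36.6, 36.0 and 21.8 CPM in *Xbp1* fl/fl and 16.9 and 18.7 CPM in *Xbp1* LKO libraries. *Stat2*, a subunit of ISGF3, was at -0.08, with 44.6 to 66.1 CPM and 49.9 to 54.4 CPM, so its groups overlapped. The sensors had a median of -0.23, with 5 of 6 negative. *Eif2ak2*, which encodes the kinase PKR, was at -0.39 (adjusted p = 0.14), while *Ddx58* and *Ifih1*, the sensors RIG-I and MDA5, were at 0.08 and -0.08. The 3 genes of the PARP9 complex and PARP14 were between -0.14 and -0.29, and the 11 other effectors were all negative. Among these *Ifi27* was just outside the threshold at -0.65 (adjusted p = 0.071). The GTPases, some of which coat and break pathogen vacuoles, had a median of -0.37 with 6 of 8 negative. They ranged from -0.85 for *Iigp1* to 0.82 for *Gbp6* (adjusted p = 0.46).

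The ISG15 system stood at a median of 0.31 on chow. ISG15 is a ubiquitin-like protein, and *Herc6* and *Trim25* encode ligases for it, while *Usp18* encodes the protease that removes it and a brake on the interferon receptor. *Isg15* had 8.83, 5.26 and 3.93 CPM in *Xbp1* fl/fl and 2.99 and 3.89 CPM in *Xbp1* LKO libraries, which only just did not overlap, and was at -0.80 (adjusted p = 0.26). In contrast, *Usp18* was at 0.90 (adjusted p = 0.18), *Trim25* at 0.44 (adjusted p = 0.14) and *Herc6* at 0.19. None of these passed the threshold.

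**Figure D2:**
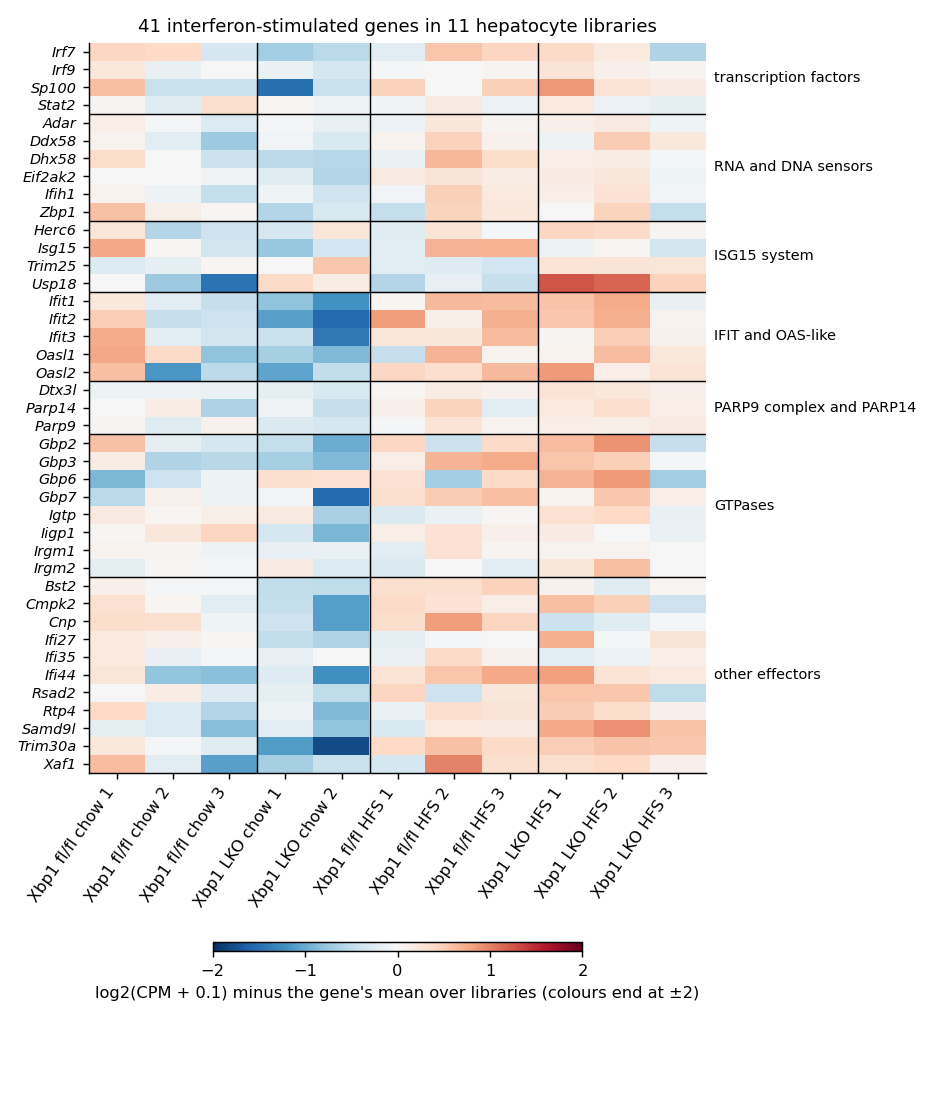
Level of the 41 members (vertical axis, grouped by role) in the 11 libraries (horizontal axis), as log2(CPM + 0.1) minus the gene's mean over libraries, with colours ending at -2 and 2. The chow-fed *Xbp1* LKO columns are mostly blue, and *Xbp1* LKO chow 2 is the lowest library for 22 of the 41 members.

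Which library was left out decided the calls on chow. Without *Xbp1* LKO chow 2, 0 members were called, with 0.498% of all genes called, and the adjusted p was 0.215 for *Trim30a*, 0.25 for *Iigp1*, 0.24 for *Bst2* and 0.39 for *Cnp*. The median member log2 fold change was then -0.23. Without *Xbp1* fl/fl chow 1, 2 members were called, *Iigp1* lower and *Usp18* higher, where 3.59% of all genes were called. Without *Xbp1* fl/fl chow 2, 1 was called, *Trim30a*, where 2.46% of all genes were. Scaling matters too, since library totals in place of TMM moved the median of all genes to 0.33 and that of the members to -0.06, with 23 of 41 negative, and called *Trim30a* and *Iigp1* lower and *Usp18* and *Trim25* higher, where 2.37% of all genes were called lower and 20.2% higher.

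Markers of other liver cells were also lower on chow in the knockout, for macrophages only through 1 library. The summed CPM of 20 macrophage and Kupffer cell markers was 58.1 to 218 in *Xbp1* fl/fl and 56.9 to 76.8 in *Xbp1* LKO libraries, and 18 of 20 had a negative log2 fold change. The sum of 15 sinusoidal endothelial markers was 65.4 to 160 and 39.3 to 49.7 CPM, with 15 of 15 negative. The sum of 14 stellate cell markers was 19.8 to 67.6 and 14.2 to 16.6 CPM, with 12 of 12 tested markers negative and *Colec10* called lower. None of the markers in these lists was at 0 in all libraries. The sums of *Xbp1* fl/fl chow 1 were the highest, and those of chow 2 and chow 3 were 70.3 and 58.1 CPM for macrophages. Without that library, 16 of 20 macrophage and Kupffer cell markers were positive, with a median of 0.53, 15 of 15 endothelial markers were negative, with a median of -0.85, and 8 of 12 stellate cell markers were negative, with a median of -0.33. The member median was then -0.25, with 29 of 41 negative. *Sox9*, 1 of 8 cholangiocyte markers, was called lower on chow (-1.54). The part of these cells in the member values was not tested, and in these bulk libraries fewer cells of a type and less RNA per cell cannot be told apart.

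On the HFS diet, the members as a whole were not shifted between the genotypes. Values were positive for 21 and negative for 20, with a median of 0.0074 compared to 0.0083 over all genes. *Usp18* was the only member called by edgeR and was higher in *Xbp1* LKO hepatocytes, where 1.92% of all genes were called higher. No member was called lower, where 2.16% of all genes were, and at an unadjusted p under 0.05, 5 members were higher and 2 lower, where 8.86% of all genes were higher and 8.6% lower. DESeq2 called 3 higher, *Usp18*, *Trim25* and *Samd9l*, and 2 lower, *Bst2* and *Cnp*, where it called 3.3% of all genes higher and 3.93% lower. All 3 *Xbp1* LKO libraries were above all 3 *Xbp1* fl/fl libraries in 4 members, where 13.6% of all genes were, and below them in 2, where 12.5% were. Under library totals the median was 0.26, compared to 0.27 over all genes, and 7 members were called higher and 0 lower, where 9.68% of all genes were called higher and 1.47% lower.

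*Usp18* lies on chromosome 6 from 121245906 to 121270917. Its level on the HFS diet was 6.29, 8.40 and 6.81 CPM in *Xbp1* fl/fl and 22.6, 21.3 and 13.1 CPM in *Xbp1* LKO libraries. The groups were apart, with a log2 fold change of 1.41 (SE 0.31, adjusted p = 0.031). On chow it was 9.49, 5.66 and 3.34 CPM in *Xbp1* fl/fl and 12.4 and 10.5 CPM in *Xbp1* LKO libraries, again without overlap. Leaving out any library of the comparison other than *Xbp1* LKO HFS 3 ended the call, with an adjusted p from 0.065 to 0.12.

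*Trim25*, which also ubiquitinates RIG-I, had 108, 106 and 97.3 CPM in HFS-fed *Xbp1* fl/fl and 153, 152 and 150 CPM in HFS-fed *Xbp1* LKO libraries. Its chow values were 105, 110 and 129 CPM in *Xbp1* fl/fl and 127 and 184 CPM in *Xbp1* LKO libraries. The groups were apart on the HFS diet and overlapped on chow. On the HFS diet the log2 fold change was 0.55 (SE 0.14, adjusted p = 0.051), just outside the threshold. *Cnp* on the HFS diet was at 15.1, 21.1 and 15.9 CPM in *Xbp1* fl/fl and 8.72, 9.93 and 11.5 CPM in *Xbp1* LKO libraries. Those groups were apart as well, with a log2 fold change of -0.79 (SE 0.20, adjusted p = 0.055).

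*Bst2* had 177, 178 and 195 CPM in HFS-fed *Xbp1* fl/fl and 151, 120 and 146 CPM in HFS-fed *Xbp1* LKO libraries. All of the latter were below all of the former, and the log2 fold change was -0.40 (SE 0.11, adjusted p = 0.073). *Samd9l*, an antiviral and growth-restraining protein, was at 9.57, 13.6 and 13.5 CPM in HFS-fed *Xbp1* fl/fl and 20.3, 22.5 and 17.7 CPM in HFS-fed *Xbp1* LKO libraries. It was higher in every *Xbp1* LKO library, with a log2 fold change of 0.72 (SE 0.21, adjusted p = 0.085).

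The role groups had medians from -0.08 to 0.14 on the HFS diet, apart from the ISG15 system at 0.42. Within it *Isg15* was at -0.58 (adjusted p = 0.38). The IFIT and OAS-like group, which had the most negative median on chow, had a median of -0.03 here, with 1 of 5 positive. *Iigp1* was at -0.16 (adjusted p = 0.69) and *Trim30a* at 0.08 (adjusted p = 0.92). The summed CPM of macrophage and Kupffer cell markers was 115 to 227 in *Xbp1* fl/fl and 123 to 174 in *Xbp1* LKO libraries, and the log2 fold change was positive for 19 of 20, with none called. Endothelial markers summed to 125 to 213 and 103 to 169.7 CPM, with 15 of 15 negative, and stellate cell markers to 36.1 to 62.4 and 40.1 to 81.1 CPM. The part of these cells was not tested.

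**Figure D3:**
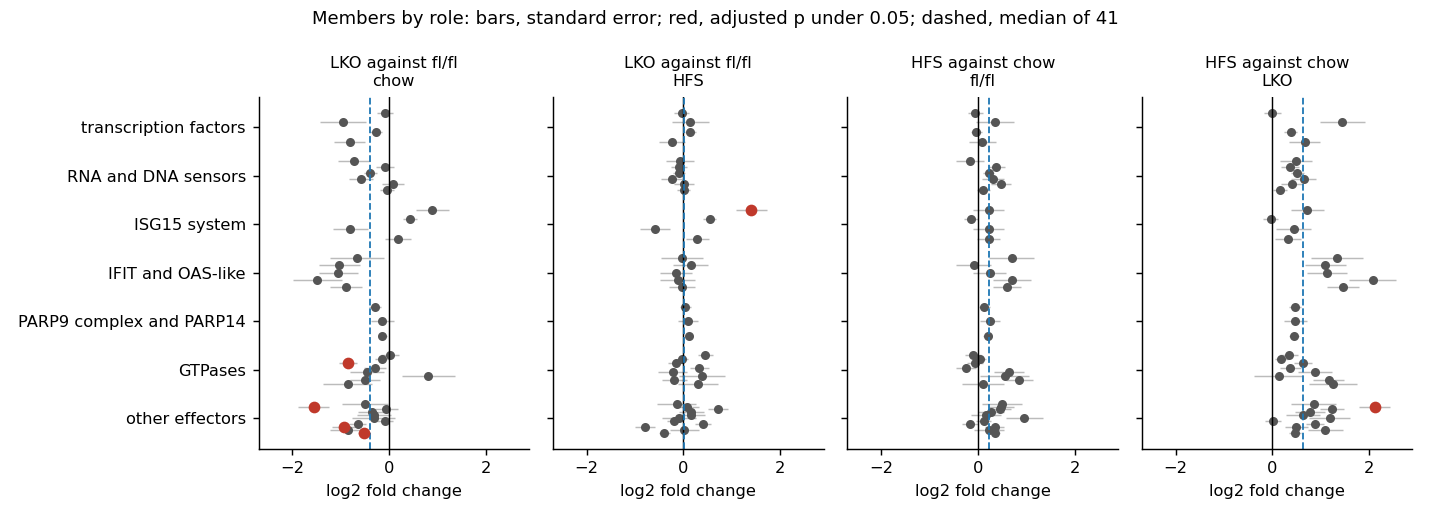
Log2 fold change (horizontal axes) of the 41 members by role in the 4 comparisons of genotype and diet. Points are genes with the standard error of edgeR's fit, red points have an adjusted p under 0.05, and dashed lines mark the member medians of -0.39, 0.0074, 0.22 and 0.63; both panels that use chow-fed *Xbp1* LKO libraries lie away from 0, to opposite sides.

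Between diets in control hepatocytes, most members were a little higher on HFS than on chow, by less than the test could call. The log2 fold change was positive for 32 of 41, with a median of 0.22 compared to -0.0056 over all genes. edgeR called 0 members, where 0.135% of all genes were called higher and 0.293% lower. DESeq2 also called 0, where it called 0.473% of all genes higher and 0.726% lower. At an unadjusted p under 0.05, 6 members were higher and 0 lower, where 4.53% of all genes were higher and 4.41% lower. All HFS libraries were above all chow libraries in 7 members, where 6.33% of all genes were, and below them in 2, *Igtp* and *Ifi27*, where 7.34% were.

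The smallest p belonged to *Bst2*, at the CPM values already given, with a log2 fold change of 0.35 (SE 0.11, adjusted p = 0.33). *Gbp3*, a guanylate-binding protein, had 3.97, 2.31 and 2.39 CPM on chow and 3.91, 5.80 and 6.02 CPM on the HFS diet in *Xbp1* fl/fl libraries. The highest chow library lay just above the lowest HFS library, and the log2 fold change was 0.86 (SE 0.27, adjusted p = 0.33). *Ifi44*, an interferon-induced cytoplasmic protein, had 2.10, 0.982 and 0.946 CPM on chow and 2.14, 2.65 and 3.04 CPM on the HFS diet. These groups were apart by a small margin, with a log2 fold change of 0.96 (SE 0.38, adjusted p = 0.47). *Xbp1* fl/fl chow 1 was the highest chow library of its genotype for 32 of the 41 members, compared to 33.6% of all genes, and for the macrophage, endothelial and stellate sums. Without it, the median member log2 fold change was 0.40 and 0 members were called, where 0.234% of all genes were. Markers of other cells were higher on the HFS diet too, with 15 of 15 endothelial markers positive at a median of 0.79, 12 of 12 tested stellate cell markers positive at a median of 0.49, and 12 of 20 macrophage and Kupffer cell markers positive at a median of 0.07. Without *Xbp1* fl/fl chow 1 these medians were 1.28, 1.23 and 1.19. Their part in the member values was not tested.

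In *Xbp1* LKO hepatocytes, the members were higher on the HFS diet than on chow in 39 of 41 log2 fold changes, with a median of 0.63 compared to -0.0027 over all genes. *Trim30a* passed the threshold and was higher, where 0.0451% of all genes were called higher. No member was called lower, where 0.015% of all genes were. At an unadjusted p under 0.05, 22 members were higher and 0 lower, where 7.49% of all genes were higher and 5.16% lower. DESeq2 called 8 members higher and 0 lower, where it called 1.1% of all genes higher and 0.44% lower. All 3 HFS libraries were above both chow libraries in 28 members, where 16.7% of all genes were, and below in 0, where 14.4% were. This comparison uses the same 2 chow-fed *Xbp1* LKO libraries as the genotype comparison on chow, so the values of each are given side by side and not as separate evidence.

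*Trim30a* had 2.28, 2.42 and 2.38 CPM in HFS-fed *Xbp1* LKO libraries compared to 0.683 and 0.393 CPM on chow. The HFS values were near those of HFS-fed *Xbp1* fl/fl libraries, at 2.14, 2.44 and 2.11 CPM. The log2 fold change of HFS compared to chow in *Xbp1* LKO hepatocytes was 2.12 (SE 0.32, adjusted p = 0.046). The call was lost without *Xbp1* LKO chow 2 (adjusted p = 0.32) and without any of the HFS-fed *Xbp1* LKO libraries (adjusted p from 0.079 to 0.13).

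*Samd9l* had 10.3 and 6.86 CPM in chow-fed *Xbp1* LKO libraries, below its 3 HFS values of that genotype, with a log2 fold change of 1.23 (SE 0.25, adjusted p = 0.14). On chow its *Xbp1* fl/fl libraries had 10.4, 9.82 and 6.52 CPM, which overlapped those of *Xbp1* LKO. *Ifi27*, a small protein of mitochondrial and nuclear membranes, had 67.7 and 62.7 CPM on chow and 156, 92.2 and 114 CPM on the HFS diet in *Xbp1* LKO libraries. Its *Xbp1* fl/fl libraries had 109, 101 and 96.8 CPM on chow and 84.2, 93.9 and 95.7 CPM on the HFS diet. Thus all HFS libraries were above all chow libraries in *Xbp1* LKO and below all chow libraries in *Xbp1* fl/fl. Its log2 fold change was 0.89 (SE 0.19, adjusted p = 0.15) in *Xbp1* LKO and -0.17 (SE 0.16, adjusted p = 0.85) in *Xbp1* fl/fl hepatocytes.

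The IFIT and OAS-like group had the median farthest from 0, at 1.35, against the same 2 chow-fed *Xbp1* LKO libraries as its median on chow. In those libraries *Ifit2* held 8 and 5 reads and *Oasl2* 9 and 14 reads. All 5 members of the group were higher in every HFS library of *Xbp1* LKO mice. *Ifit1* was at 1.47 (adjusted p = 0.16) and *Ifit2* at 2.07 (adjusted p = 0.18). *Ifit1* rests on 59 and 43 reads on chow in *Xbp1* LKO libraries and 105 to 203 on the HFS diet. Neither passed the threshold with edgeR. The medians of the other groups were 0.86 for other effectors, 0.52 for transcription factors, 0.50 for GTPases, 0.46 for the PARP9 complex and PARP14, 0.45 for sensors and 0.38 for the ISG15 system. *Dtx3l*, the ligase partner of PARP9, was at 0.45 (SE 0.10, adjusted p = 0.16), and *Stat2* and *Trim25* were the members at or below 0, at -0.0014 and -0.04.

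The same markers of other cells moved in this comparison. The log2 fold change of HFS compared to chow in *Xbp1* LKO hepatocytes was positive for 19 of 20 macrophage and Kupffer cell markers, with a median of 1.31, for 15 of 15 endothelial markers, with a median of 1.53, and for 12 of 12 tested stellate cell markers, with a median of 2.40. None of them was called. Lymphocyte markers summed to at most 3.90 CPM in any library, and *Cd4* was called higher with the HFS diet in *Xbp1* fl/fl hepatocytes (1.99). Dendritic and plasmacytoid cell markers summed to 12.0 to 17.8 CPM and neutrophil markers to at most 4.95 CPM. The part of these cells in the member values was not tested.

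**Figure D4:**
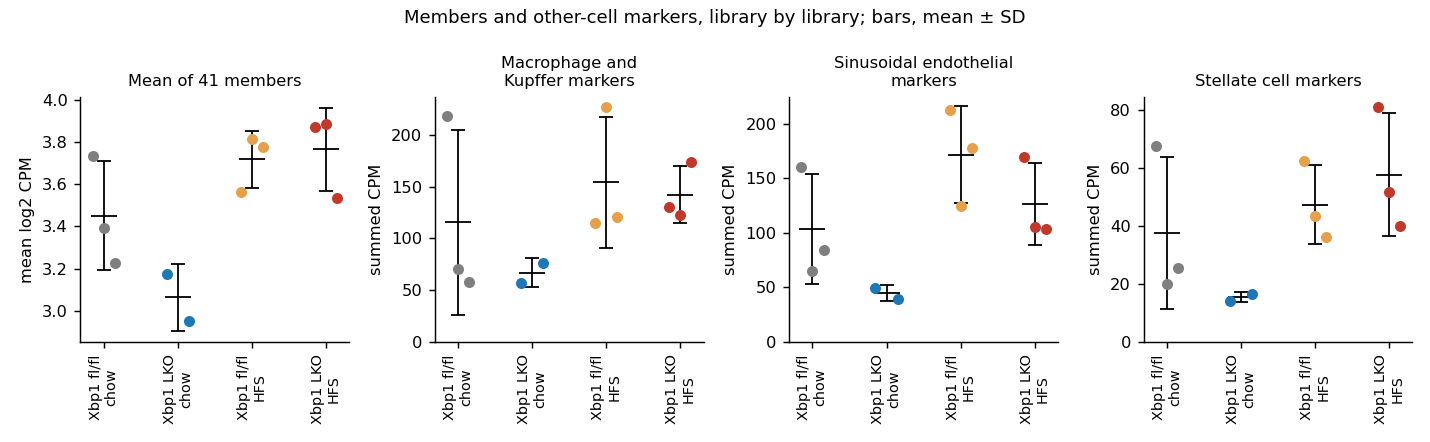
Mean log2 CPM of the 41 members (left) and summed CPM of macrophage and Kupffer, sinusoidal endothelial and stellate cell markers, by genotype and diet. Points are libraries and bars the mean with its SD; in all 4 panels the chow-fed *Xbp1* LKO group has the lowest mean, and *Xbp1* fl/fl chow 1 is the highest chow library.

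As a mean over the 41 members, the log2 CPM was 3.45 ± 0.26 (SD, n = 3) in chow-fed *Xbp1* fl/fl, 3.06 ± 0.16 (SD, n = 2) in chow-fed *Xbp1* LKO, 3.72 ± 0.13 (SD, n = 3) in HFS-fed *Xbp1* fl/fl and 3.76 ± 0.20 (SD, n = 3) in HFS-fed *Xbp1* LKO libraries. Library by library it was 3.73, 3.39 and 3.23 for *Xbp1* fl/fl and 3.18 and 2.95 for *Xbp1* LKO on chow, and 3.56, 3.81 and 3.77 and then 3.87, 3.89 and 3.54 on the HFS diet. Both chow-fed *Xbp1* LKO libraries were below all others, the lowest *Xbp1* fl/fl chow library by a small margin. *Xbp1* fl/fl chow 1 lay among the HFS libraries. The same mean over all genes tested lay between 3.34 and 3.43 in the 11 libraries.

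The interaction asks whether the diet effect differed between the genotypes. It was positive for 37 of 41 members, with a median of 0.35 compared to 0.0093 over all genes. edgeR called 0 members and 0% of all genes. At an unadjusted p under 0.05, 5 members had a positive and 0 a negative interaction, where 3.69% and 2.44% of all genes did. DESeq2 called 1 member, *Ifi27*, positive, where it called 0.161% of all genes positive and 0.0659% negative. The interaction was also positive for 19 of 20 macrophage and Kupffer cell markers, with a median of 1.17, for 15 of 15 endothelial markers, with a median of 0.75, and for 12 of 12 tested stellate cell markers, with a median of 1.78, and their part in the member values was not tested. Without *Xbp1* fl/fl chow 1 these medians were 0.19, 0.40 and 0.83, with 12 of 20, 13 of 15 and 10 of 12 positive, and that of the members was 0.24. The smallest p values in edgeR belonged to *Ifi27* (1.05, SE 0.25, adjusted p = 0.60), *Trim30a* (1.63, SE 0.40, adjusted p = 0.60) and *Iigp1* (0.69, SE 0.24, adjusted p = 0.72). A difference between the genotypes in the diet effect was therefore not established for a member by edgeR with the filter on low counts. Without that filter edgeR called 2 members positive, *Ifi27* among them, where 0.619% of all genes were called positive.

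Upstream of the members, interferon genes were nearly silent in these libraries. Of 21 interferon genes, 20 had 0 counts in all 11 libraries and *Ifnk* had 6 counts in all, and a count of 0 allows at most 0.112 to 0.173 CPM per library. Of 6 receptor genes 5 were tested. *Ifnar2* had 39.6, 45.1 and 42.4 CPM in HFS-fed *Xbp1* fl/fl and 28.9, 28.6 and 26.1 CPM in HFS-fed *Xbp1* LKO libraries. On this diet it fell in the knockout by a log2 fold change of -0.60 (SE 0.09, adjusted p = 0.0054), and on chow it was at -0.40 (SE 0.10, adjusted p = 0.053). *Ifnar1* was at -0.05 on chow and -0.27 on the HFS diet, *Ifngr1* at 0.12 and 0.41, *Ifngr2* at 0.0073 and 0.07, and *Il10rb* at -0.14 and 0.30, and none of these passed the threshold. *Ifnlr1*, the receptor chain for interferon lambda, had 31 counts over all libraries and was not tested.

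Of 9 genes of the JAK-STAT and IRF group, *Irf5* was called lower on chow. This factor, which acts behind Toll-like receptors, had 11.5, 15 and 8.96 CPM in chow-fed *Xbp1* fl/fl and 6.06 and 3.63 CPM in chow-fed *Xbp1* LKO libraries, a log2 fold change of -1.28 (SE 0.30, adjusted p = 0.034). *Irf1*, a transcription factor that is itself induced by interferon, was at 0.21 and 0.31 between genotypes and at -0.28 and -0.18 for the diet. Of 11 tested sensor adaptors and kinases, *Ikbke*, which encodes the kinase IKKε that phosphorylates IRF3 and IRF7, was called lower on both diets. Its levels on chow were 34.2, 29.3 and 27.9 CPM in *Xbp1* fl/fl and 6.53 and 7.43 CPM in *Xbp1* LKO libraries, and on the HFS diet 25.5, 36.0 and 26.4 CPM and 16.3, 7.21 and 9.93 CPM. No *Xbp1* LKO library reached the lowest *Xbp1* fl/fl library of its diet, with log2 fold changes of -2.13 (SE 0.30, adjusted p = 0.0045) and -1.40 (SE 0.25, adjusted p = 0.010). Of 9 tested negative regulators, 0 were called in any comparison, where at most 3.02% of all genes were called in 1 direction.

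A further list of 52 tested interferon-stimulated genes outside the 41 members gave no call in any comparison. Of all genes, edgeR called at most 3.02% in 1 direction between genotypes, 0.293% between diets and 0% for the interaction. On chow 38 of the 52 were negative between genotypes, with a median of -0.19, where 49.7% of all genes were negative. For the HFS diet in *Xbp1* LKO hepatocytes 41 were positive, with a median of 0.35, where 49.5% of all genes were positive. The HFS genotype comparison had a median of 0.08 and the diet in *Xbp1* fl/fl hepatocytes 0.22. A list of 10 tested close paralogs of members also gave no call, with medians of -0.61 between genotypes on chow and 1.29 for the diet in *Xbp1* LKO hepatocytes.

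Several members lie side by side or share sequence. *Ifit1*, *Ifit2* and *Ifit3* neighbour each other on chromosome 19, *Gbp2*, *Gbp3* and *Gbp7* on chromosome 3, *Parp9*, *Dtx3l* and *Parp14* on chromosome 16, *Rsad2* and *Cmpk2* on chromosome 12, *Oasl1* and *Oasl2* on chromosome 5, and *Igtp* and *Irgm2*, whose gene models overlap on the same strand, on chromosome 11. *Parp9* and *Dtx3l* overlap on opposite strands. Some members also overlap genes outside the list, such as *Irf7* with *Phrf1* on the other strand and *Irf9* with *Rnf31* on the same strand. Reads of such pairs may not be told apart, since the use of strand in counting is not given. Of the distinct 50-base stretches of a member's transcripts, the length of a read here, 70.7% of those of *Gbp6* and 51.2% of those of *Ifit3* also occur in transcripts of other genes, chiefly *Gm43302* and *Gbp10* for the former and *Ifit3b* for the latter, so their counts are uncertain. The share was 12.7% for *Gbp7*, 12.5% for *Herc6*, 11.8% for *Igtp*, 11.6% for *Rtp4*, 5.98% for *Trim30a* (with *Trim30d*) and 1.69% for *Iigp1*, and it was 0 for *Bst2*, *Cnp* and *Usp18*. *Trim30d* had 6.51, 4.57 and 3.73 CPM in chow-fed *Xbp1* fl/fl and 2.73 and 1.97 CPM in chow-fed *Xbp1* LKO libraries. The lowest library of *Trim30a*, *Ifit2*, *Oasl2* and *Gbp6* held 9, 5, 6 and 7 reads, so their levels on chow are the least precise of the members.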

How the data were processed

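RNA of isolated hepatocytes from 11 libraries had been sequenced as 50 bp single-end reads. The paper names a stranded mRNA kit and the labels a total RNA kit. The authors deposited whole-number counts per Ensembl gene, neither normalized nor filtered. Their paper names kallisto and tximport, while the submitters' processing notes name cutadapt 1.13, STAR, HTSeq 0.6.1p1 and mm10, and the counts do not tell which made the files. The annotation version is not given in the sources used here. Symbols and positions came from GENCODE M21 on GRCm38 (54079 of 54232 identifiers matched). Groups and replicate numbers came from the sample titles. The labels do not name animals, and p-values measure the spread between these libraries.

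In R 4.3.3, edgeR 4.0.16 computed TMM factors and CPM, applied filterByExpr (minimum count 10) and fitted 1 quasi-likelihood model with a mean for each of the 4 groups, over all 11 libraries. Genotypes were compared within each diet, diets within each genotype, and the difference of these was the interaction, with Benjamini-Hochberg adjustment over 13303 genes, with 0.05 as the threshold. Library means are of log2 CPM (prior count 2). Alternatives were DESeq2 1.42.0, RLE size factors, library totals, no filter, only the groups compared, a replicate block and each library left out. Counts of members whose groups do not overlap, another numbering of 1 chow-fed library, and marker lists without each library, were tried as alternatives after the data were seen. Replicates were not duplicates of each other, since a chi-square test of their counts gave 25.6 to 93.7 per degree of freedom. The floor of a count of 0 is 3 counts. The code was tested on simulated counts.

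Members and gene lists were chosen with earlier results of these data known. The genes given library by library are the members past the threshold in any comparison, the 3 smallest unadjusted p in each comparison and the 3 highest mean CPM. Of the other lists, genes past the threshold, the receptors and *Irf1* are named, and 1 further gene is not reported here. *Trim30d*, *Ifnk* and the members named by role were chosen after their values were seen. *Mb21d1* and *Mnda* matched no row. Promoter windows came from RefSeq on GRCm38.p6.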

Additional observations from a re-analysis of the deposited data

Results flagged for a closer look

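For *Ifi27*, the libraries of the 2 diets did not overlap in either genotype and lay in opposite directions. All 3 HFS libraries of *Xbp1* fl/fl mice were below all 3 chow libraries, at 84.2 to 95.7 compared to 96.8 to 109 CPM, and all 3 HFS libraries of *Xbp1* LKO mice were above both chow libraries, at 92.2 to 156 compared to 62.7 and 67.7 CPM. In *Xbp1* fl/fl hepatocytes the margin was small, with a log2 fold change of -0.17 (SE 0.16, adjusted p = 0.85 in edgeR). A fall in that genotype was therefore not established, and 7.34% of all genes were likewise lower in every HFS library. In *Xbp1* LKO hepatocytes it was 0.89 (SE 0.19, adjusted p = 0.15 in edgeR), and 16.7% of all genes were likewise higher. The interaction log2 fold change was 1.05 (SE 0.25), with an adjusted p of 0.60 in edgeR and 0.039 in DESeq2. Without the filter on low counts the adjusted p in edgeR was 0.0017, so the call depends on the tool and on the filter. HFS libraries are pools of 2 mice and chow libraries are not, which cannot be told apart from the diet.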

How the results depend on the processing

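With 2 chow-fed *Xbp1* LKO libraries and several members under 30 reads, single calls rest on single libraries, and the 5 medians kept their sign under every alternative except that of the HFS genotype comparison, which lies near 0. In what follows the share of all genes called under the same setting stands in parentheses. On chow, the count of 4 members called (4.75%) became 7 without the filter on low counts (5.79%) and 0 with only the groups compared (1.88%). It was 1 with the replicate block (3.42%) and 1 with the block that numbers *Xbp1* LKO chow 2 as 3 (3.67%). With 1 *Xbp1* fl/fl chow library left out, 1 to 4 members were called lower (1.67% to 3.03%) and 0 to 1 higher (0.783% to 1.5%). On the HFS diet, 1 (4.08%) became 7 under library totals (11.1%), 5 without the filter (5.53%), 5 with DESeq2 (7.23%) and 4 with only the groups compared (6.48%). With 1 library left out, 0 to 1 were called higher (0.619% to 1.79%) and 0 lower (0.76% to 2.25%). For the HFS diet in *Xbp1* fl/fl hepatocytes, 0 became 1 without the filter (1.92%). In *Xbp1* LKO hepatocytes, 1 (0.0601%) became 13 without the filter (2.78%), 8 with DESeq2 (1.54%) and 0 with only the groups compared (0%). It was 0 with the replicate block (0.143%, *Trim30a* adjusted p = 0.062). With 1 HFS-fed *Xbp1* LKO library left out it was 0, where 0% to 0.0152% of all genes were called higher and 0% to 0.0076% lower. For the interaction, 0 became 2 without the filter (1.03%) and 1 with DESeq2 (0.227%).

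Under library totals the median member log2 fold change was -0.064 on chow and 0.26 on the HFS diet, beside 0.33 and 0.27 for all genes, and members with both *Xbp1* LKO libraries lowest on chow numbered 8, where 5.83% of all genes did. Log2 fold changes of single genes were followed for 16 pairs of member and comparison, chosen as past the threshold or with the smallest p of a comparison. Over the alternatives, 36 of their values fell short of the threshold and 13 newly passed it. None of these values changed direction, which the choice of such pairs favours. Other members did change direction on chow under library totals, where fewer members were negative than in the main fit. Libraries with the same replicate number are different animals, and the correlation of their deviations over 15 pairs was -0.20 to 0.23 (median -0.05, over 0.1 in 4). The main fit did not pair libraries by number. With so few libraries in each group, these correlations cannot exclude a batch shared by number. Where 1 chow-fed *Xbp1* LKO library was left out, the remaining one is assumed to vary like the other groups. The causes of these changes were not tested.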
